A study of Rattus norvegicus with 21 samples.

Results

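The comparison described here sets the ethanol extract of Jakyakgamcho-tang (JGT) against its water extract at the high dose of 100 µg/mL in rat PC12 cells. It holds 6 of the 21 libraries of the series, chosen by their titles, 3 for each extract, and no vehicle library enters it. All 6 come from the same cell line, received the same nominal dose and differ by label only in the solvent used for extraction. The rest of the series is vehicle (3 libraries, also labelled untreated) and each extract at 4 and 20 µg/mL (3 libraries per group). The labels do not say whether replicates were grown as separate cultures, so the spread behind each p-value may be technical. The labels name neither the treatment time nor a batch.

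PC12 cells were established from a rat pheochromocytoma, a tumour of the catecholamine-making chromaffin cells of the adrenal medulla. They make and store dopamine and noradrenaline, grow neurites when given nerve growth factor, and often stand in for neurons in culture. JGT is an East Asian formula of peony root and licorice root. Water draws mainly polar compounds such as glycosides and sugars from plant material, whereas ethanol also draws less polar compounds such as flavonoid and triterpene aglycones, so extracts of the same herbs can differ in composition at equal mass. The composition of these extracts was not analysed here.

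The deposited tables list Ensembl rat gene IDs without symbols. The RefSeq table used for names, with 47357 rat genes, gives an Ensembl ID for 0 of them, so none of the 32883 IDs could be paired with a symbol, and cell line markers, pathway lists and promoter sequences could not be matched to the values. The cell type in the labels is therefore unchecked here. Genes are given by ID, 2 in each direction by rule and ENSRNOG00000046379.2 outside it, with the remaining genes described as groups.

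Total expected counts were 18398186 to 26845043 in the high-dose water libraries and 17963223 to 23528245 in the high-dose ethanol libraries. Median fragment lengths were 222 ± 5.35 bases with water and 221 ± 9.24 bases with ethanol extract (SD, n = 3 each). A set of 3 ethanol libraries of the series stood apart from the rest, namely low-dose replicate 1 and medium-dose replicates 2 and 3. Their median absolute deviations from the median library were 0.179, 0.202 and 0.303 log2 units, against 0.0446 to 0.141 in the other 18. None of them is among the 6 compared. Genes were kept at a mean of at least 1 CPM (counts put on a common scale per library) over the 6 libraries, which left 12231 genes holding 99.9% of the expected counts. The lowest mean kept was 1.00 CPM and the highest left out was 0.999 CPM.

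At the high dose the extracts differed in many genes by small amounts. With the ethanol extract, 374 genes were higher (3.06% of those tested) and 391 were lower (3.2%) than with the water extract, at a Benjamini-Hochberg adjusted p under 0.05 from edgeR's quasi-likelihood F test. The median absolute log2 difference among these 765 genes (6.25% of those tested) was 0.298, or 1.23-fold, against 0.107 over all genes tested. The middle 50% of the called genes lay between 0.248 and 0.388. At least 2-fold differences were called in 4 of the higher and 8 of the lower genes. This count of 12 depended on the setting, with 4 under DESeq2, 3 among genes with whole counts only, 1 with all 21 libraries and 38 without a filter on low counts. In 764 of the 765, every library of one extract lay above every library of the other, as they did in 29.7% of all genes tested.

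**Figure D1:**
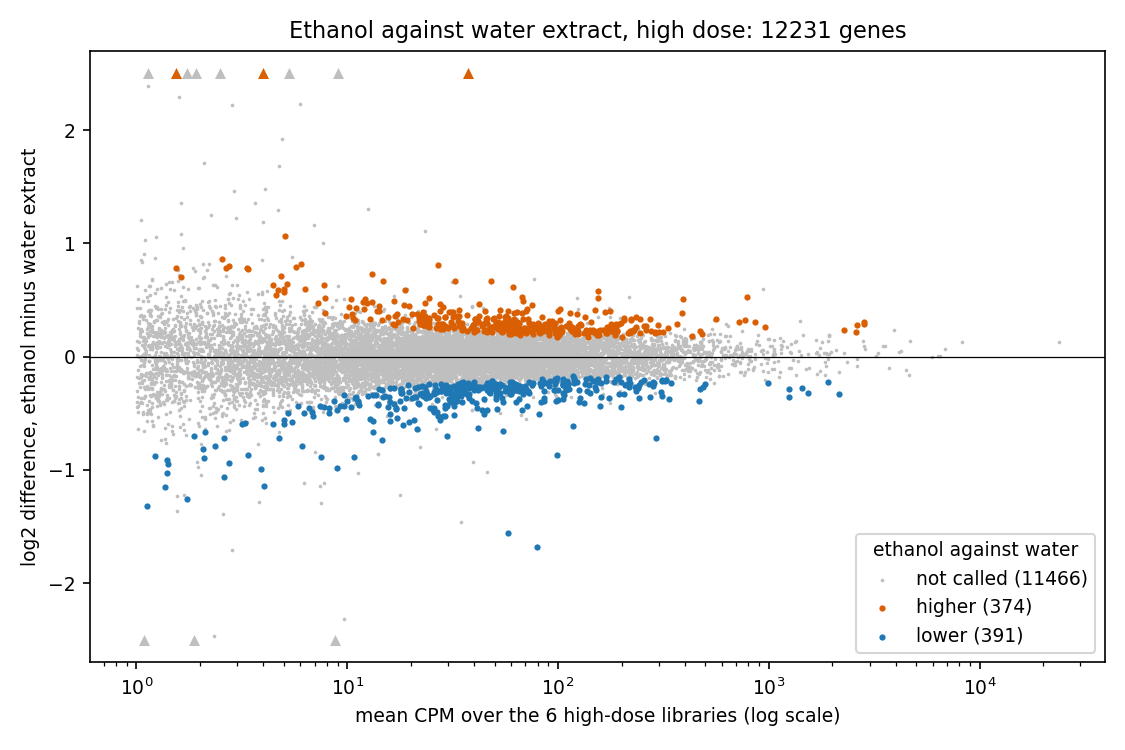
Log2 difference between ethanol and water extract at the high dose (y axis) against the mean CPM over the 6 libraries (x axis, log scale), 1 point per gene, with the 374 higher and 391 lower genes coloured. Triangles at the edges mark genes beyond a log2 difference of 2.5, of which 3 were called, all higher with ethanol, and 9 were not. Most called genes form a band of small differences on both sides of 0.

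ENSRNOG00000057347.1 was the gene with the largest fall among those called, and its expected counts were whole (within 0.001) in all 21 libraries. It stood at 128, 118 and 119.8 CPM in replicates 1 to 3 of the high-dose water group and at 38.8, 43.6 and 31.9 CPM in the high-dose ethanol group. The groups did not overlap. Its log2 difference was -1.68 ± 0.0946 (SE), with an edgeR adjusted p of 9.21e-06, which is a 3.21-fold lower level with ethanol. Per unit of length it reached 136 ± 10.2 TPM with water and 42.0 ± 6.73 TPM with ethanol extract (a level per length, scaled to a common total; SD, n = 3 each). The gene is listed with 1 transcript and a length of 1396 bases.

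Its levels in the other groups give the order of the groups. Vehicle libraries stood at 85.6, 77.3 and 122 CPM, below or within the range of the water groups. The low-dose water libraries stood at 142, 101 and 142 CPM, and the medium-dose water libraries at 131, 96.2 and 140 CPM. With ethanol extract the gene stood at 78.8, 51.3 and 38.8 CPM at the low dose and at 112.6, 68.3 and 80.8 CPM at the medium dose. Group means thus ran from 38.1 CPM with high-dose ethanol through 56.3 (low-dose ethanol), 87.3 (medium-dose ethanol) and 95.1 (vehicle) to 122 to 128 CPM in the water groups. The high-dose ethanol libraries overlapped the low-dose ethanol libraries, and the medium-dose ethanol libraries overlapped vehicle and the low- and medium-dose water groups but lay below all 3 high-dose water libraries. The high-dose ethanol libraries lay below every vehicle and every water library.

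ENSRNOG00000011078.4 was the second of the lower genes. It stood at 84.8, 86.2 and 88.9 CPM with high-dose water and at 23.9, 32.2 and 32.0 CPM with high-dose ethanol extract, with no overlap. The log2 difference was -1.56 ± 0.0912 (SE; edgeR adjusted p = 2.29e-06), a 2.94-fold lower level. In vehicle it stood at 93.4, 89.6 and 85.0 CPM, close to the high-dose water group. The low- and medium-dose water groups held 103 ± 7.93 and 95.8 ± 2.49 CPM (SD, n = 3 each). With low-dose ethanol it stood at 40.3, 49.1 and 36.7 CPM, and with medium-dose ethanol at 72.4, 21.5 and 8.56 CPM, so all 9 ethanol libraries lay below all 12 others. Its expected counts were not whole in 16 of 21 libraries, including all 6 compared here. RSEM, the program that made the counts, divides reads that fit several genes, so this level depends on that division.

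**Figure D2:**
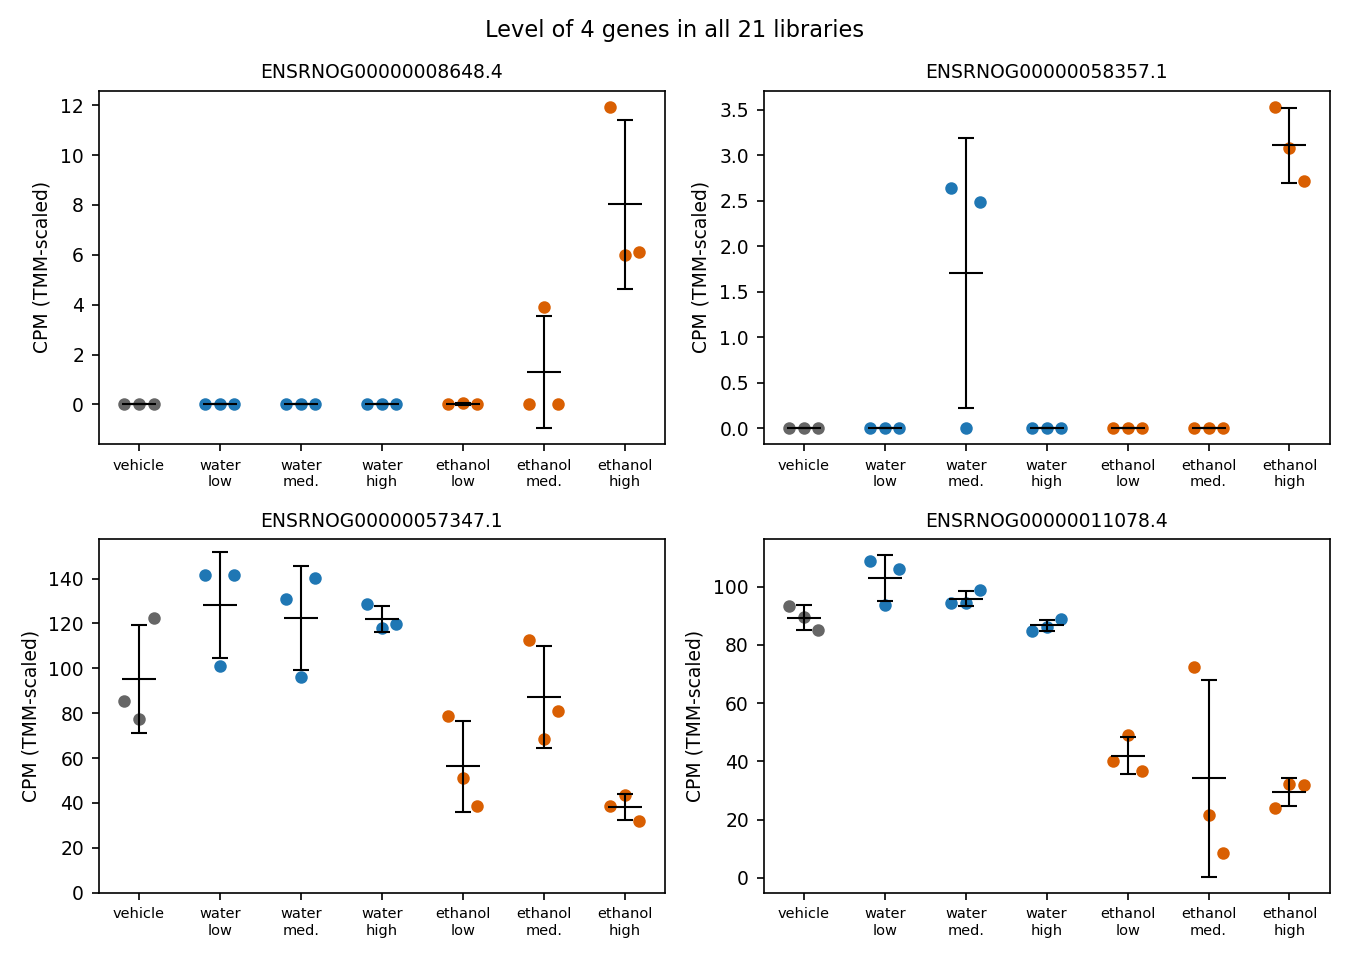
TMM-scaled CPM (y axis) of the 4 genes named by the rule in each of the 21 libraries by group (x axis). Each library is 1 point, with the group mean as a bar and the SD as whiskers (n = 3 per group). The upper genes are at 0 in every high-dose water and vehicle library, and the lower genes are below every vehicle and water library in the 3 high-dose ethanol libraries.

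The higher genes named by the rule were genes listed at 0 in every high-dose water library. Both passed the filter on the mean only through the ethanol group, so they could be tested only because they differed, and their p-values are given as a description. ENSRNOG00000008648.4, with 1 transcript of 2625 bases, held 213, 119 and 142 expected counts in replicates 1 to 3 of the high-dose ethanol group, or 11.9, 6.003 and 6.11 CPM. Replicate 1 held nearly as much as the other two together. By counting error alone, a count of 0 over the 3 water libraries allows up to 3 counts, or 0.0431 CPM. The level with ethanol extract was 186-fold that floor (edgeR adjusted p = 0.0163). Medium-dose ethanol replicates of this gene held 0 to 46.6 expected counts, so the floor is not a firm bound. The call was lost without water replicate 1 (edgeR adjusted p = 0.0741) or ethanol replicate 2 (0.0559). All vehicle and all lower-dose water libraries were also at 0. With medium-dose ethanol only replicate 2 held the gene, at 46.6 expected counts (3.91 CPM), and with low-dose ethanol replicates 2 and 3 held 0.91 and 0.26 expected counts and replicate 1 none. Each value above 0 was not whole, as happens where reads are divided between genes.

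ENSRNOG00000058357.1, with 1 transcript of 970 bases, held 63.3, 61.3 and 62.5 expected counts in the high-dose ethanol libraries, or 3.53, 3.08 and 2.71 CPM. This was 72.1-fold the same floor of 3 counts over the water group (edgeR adjusted p = 1.11e-06). The gene was not limited to ethanol: medium-dose water replicates 1 and 3 held 61.4 and 62.0 expected counts, or 2.64 and 2.48 CPM. Replicate 2 of that group held none, so a count of 0 does not bound the level of this gene. The 72.1-fold is therefore not a minimum. The other 16 libraries were at 0, vehicle and the lower-dose ethanol groups among them. The 5 values above 0 were not whole and had an SD of 0.808 counts, against 7.88 for the square root of their mean, while the totals of these libraries ran from 17963223 to 25266815. The gene thus took nearly the same count or none in every library, and its call was lost when 18 libraries (edgeR adjusted p = 0.114) or all 21 (0.301) entered the fit.

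Genes that differed by at least 2-fold were mostly scarce, and 8 of the 12 had counts that were not whole in most of the 6 libraries. A count of 0 is taken as whole, which leaves out of these 8 the higher genes at 0 in water, although every count they held was not whole. At least 1 count that was not whole was found in all 4 higher and in 6 of the 8 lower genes. Of the 4 higher ones, 3 had a mean under 10 CPM, and 2 had counts that were not whole in more than 3 of the 6 libraries. Of the 8 lower ones, 6 had a mean under 10 CPM, and 6 had such counts. The higher gene above 10 CPM was ENSRNOG00000046379.2, added outside the rule. It averaged 2.79 ± 0.814 CPM with water and 71.7 ± 12.4 CPM with ethanol extract (SD, n = 3 each), without overlap. Its rise of 4.70 ± 0.232 log2 units (SE) passed edgeR's test at an adjusted p of 7.84e-04. Vehicle averaged 1.99 CPM. Its counts were not whole in all 6 libraries, so its level also depends on how reads were divided. Lower genes with ethanol means of 0.638, 0.844 and 0.920 CPM passed the filter on the mean only through the water group (1.60, 1.90 and 1.88 CPM). They could be tested only because they differed, as with the higher genes at 0 in water, so their calls within the 12 are a description. Over all 765 called genes 13.9% had counts that were not whole in more than 3 of the 6 libraries, against 12.3% of all genes tested. Calls by whole counts in all 6 libraries were 324 higher and 322 lower among 10458 genes (6.18%), close to the 6.25% called among all genes.

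The share of genes called moved with their level. Among genes with a mean of 1 to 10 CPM, 25 were higher and 44 lower of 3152 (2.19%), with a median absolute log2 difference of 0.67 among those called. Between 10 and 100 CPM, 240 were higher and 257 lower of 6911 (7.19%), with a median of 0.30. At 100 CPM or more, 109 were higher and 90 lower of 2168 (9.18%), with a median of 0.25. Scarcer genes need a larger difference to pass, so these shares also reflect precision. Higher genes had a median length of 2344 bases, lower genes one of 1867 bases, and all tested genes one of 2219 bases. In the shortest of 3 length classes of 4077 genes each (under 1707 bases) 121 genes were higher and 167 lower (7.06% called). The middle class had 126 and 95 (5.42%), and the longest (over 2900 bases) 127 and 129 (6.28%). The share over all genes tested was 6.25%. The called genes together held 8.58% of all counts, and the higher ones went from 42971 CPM with water to 52351 CPM with ethanol extract while the lower ones went from 42076 to 34156 CPM.

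On the first principal component of the 6 libraries, which held 43.9% of the variance, the water libraries lay at -19.4, -7.36 and -3.34 and the ethanol libraries at 9.43, 13.5 and 7.16 (replicates 1 to 3). The extracts did not overlap, and the water libraries spread more widely than the ethanol libraries. The number of called genes depended on single libraries: 567, 224 and 1043 of 12231 without water replicates 1 to 3 in turn. Without ethanol replicates 1 to 3 in turn it was 232, 161 and 651. Each of these fits also had 1 replicate fewer. With libraries of other groups in the fit the number moved further, to 6 with all 21 libraries and to 1649 without the 3 libraries that stood apart.

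**Figure D3:**
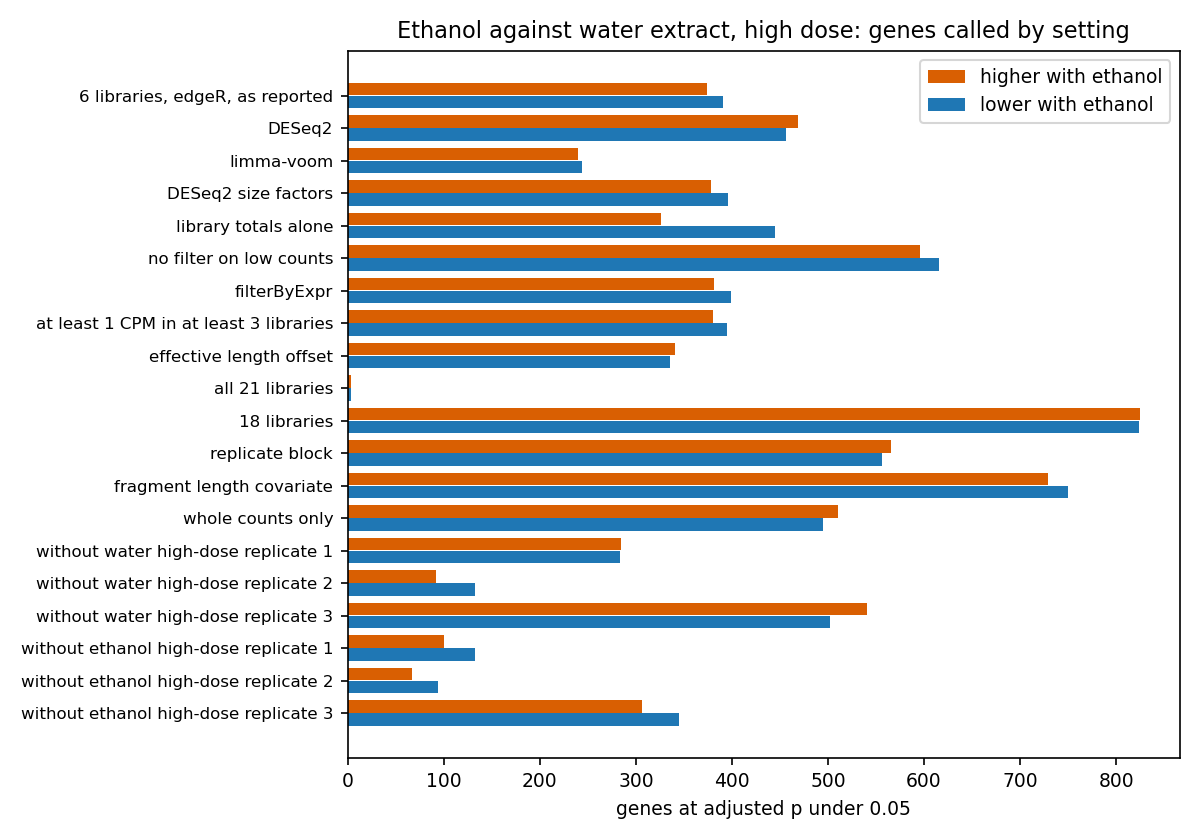
Number of genes called higher and lower with ethanol than with water extract at the high dose (x axis) under each setting (y axis), counted at an adjusted p under 0.05. The count runs from 3 and 3 genes with all 21 libraries to 825 and 824 with 18 libraries, with near-equal numbers in both directions in most settings.

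Vehicle was not part of the comparison, and its levels were set beside those of the extracts without a test. For 670 of the 765 called genes (87.6%) the mean of the 3 vehicle libraries was nearer to the high-dose water mean than to the high-dose ethanol mean, against 64.1% of all genes tested. The count was 322 of 374 among the genes higher with ethanol and 348 of 391 among the lower ones. Vehicle lay between the extracts in 445 called genes, beyond the water mean in 310 and beyond the ethanol mean in 10, against 3893, 5488 and 2850 of all 12231 genes. At the median, vehicle lay 0.0769 of the way from the water mean to the ethanol mean, against 0.129 over all genes.

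The called genes were also followed through all 21 libraries as the median log2 CPM less the midpoint of the high-dose means. For the higher genes this value was -0.125 to -0.104 in vehicle, -0.217 to -0.0858 with high-dose water and 0.113 to 0.179 with high-dose ethanol extract. It was -0.0121 to 0.0778 with low-dose ethanol and 0.0162 to 0.0424 with medium-dose ethanol, between the extremes. Low-dose water libraries ranged from -0.113 to 0.00904 and medium-dose water libraries from -0.129 to -0.00911. Some of these water libraries also lay between the high-dose groups, and low-dose water replicate 1 (0.00904) lay above low-dose ethanol replicate 1 (-0.0121). For the lower genes the value was 0.136 to 0.167 in vehicle, 0.107 to 0.225 with high-dose water and -0.188 to -0.111 with high-dose ethanol. It was -0.0616 to -0.0445 with low-dose ethanol, 0.0165 to 0.122 with low-dose water and 0.0747 to 0.146 with medium-dose water. Medium-dose ethanol replicates 1 to 3 stood at 0.0195, -0.0911 and -0.163, so that replicate 3, a library that stood apart, lay within the high-dose ethanol range. Low-dose water replicate 1 (0.0165) lay between the high-dose groups here too, below medium-dose ethanol replicate 1. The high-dose values follow from how the genes were chosen, whereas those of the other 15 libraries do not.

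**Figure D4:**
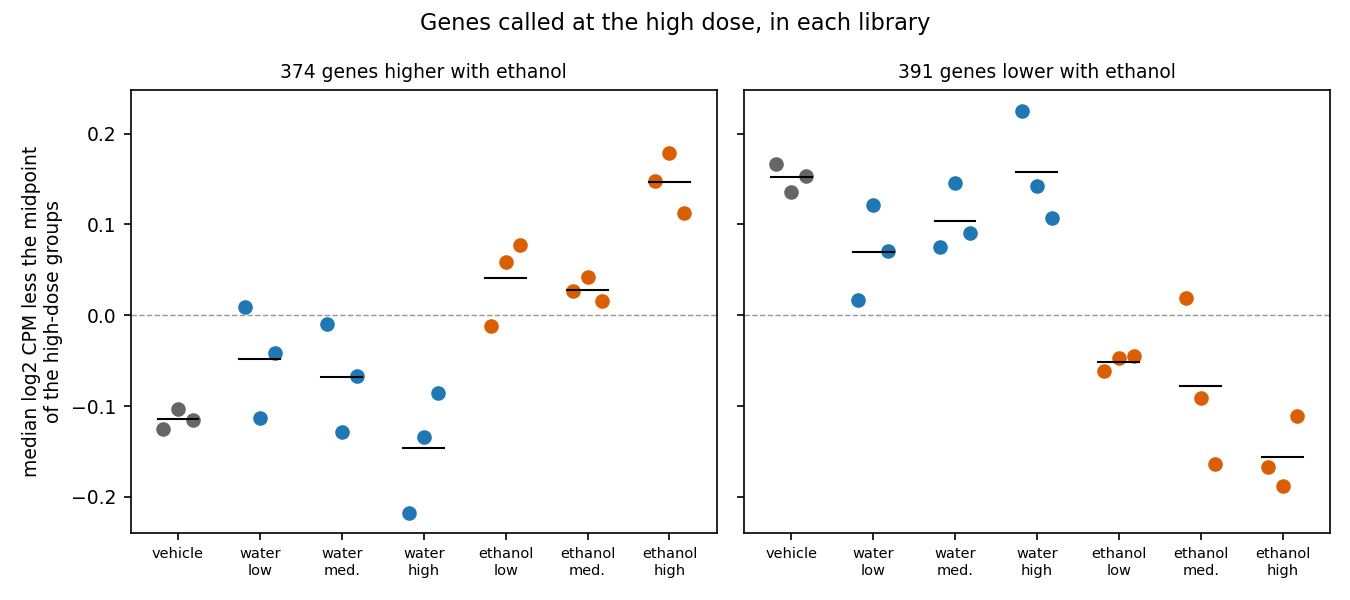
Median log2 CPM of the genes called at the high dose, less the midpoint of the 2 high-dose group means (y axis), for the 374 higher genes (left) and the 391 lower genes (right) in each library by group (x axis), with 1 point per library and the group mean as a line. Vehicle libraries sit on the side of the high-dose water group, and the low- and medium-dose ethanol libraries sit between the high-dose groups, except medium-dose ethanol replicate 3 in the right panel, at -0.163 within the high-dose ethanol range. Some low- and medium-dose water libraries also sit between the high-dose groups, and low-dose water replicate 1 overlaps lower-dose ethanol libraries in both panels.

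The extracts were compared at the lower doses in separate libraries that share none with the high dose. At 4 µg/mL, 763 of the called genes were measured and 641 of them (84.0%) had the same direction of difference, against 61.5% of the 12172 genes measured at both doses. The median low-dose log2 difference was 0.0912 among the 372 genes higher at the high dose and -0.121 among the 391 lower genes, where the high-dose medians were 0.290 and -0.310. The genes were chosen for their high-dose difference, so smaller values at the lower doses can follow from that choice alone. These medians therefore do not show an effect of dose. Without low-dose ethanol replicate 1, a library that stood apart, the share was 88.9%, against 65.4% of all genes. By edgeR's test 1 gene was higher (0.00815%) and 3 were lower (0.0244%) with ethanol at the low dose, in all 0.0326% of 12277 tested, with 896 (7.3%) at an unadjusted p under 0.05, and without that library 60 genes passed.

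At 20 µg/mL 545 of 762 called genes (71.5%) had the direction seen at the high dose, against 58.3% of all 12149 genes measured at both. The median log2 difference was 0.106 for the higher and -0.220 for the lower genes. Medium-dose ethanol replicates 2 and 3 stood apart from the other libraries. With the remaining replicate alone against 3 water libraries the shares were 66.9 and 55.7%. No gene passed edgeR's test at the medium dose (0 of 12274, with 1190, or 9.7%, at an unadjusted p under 0.05), whereas DESeq2 called 61 genes and limma-voom 1.

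**Figure D5:**
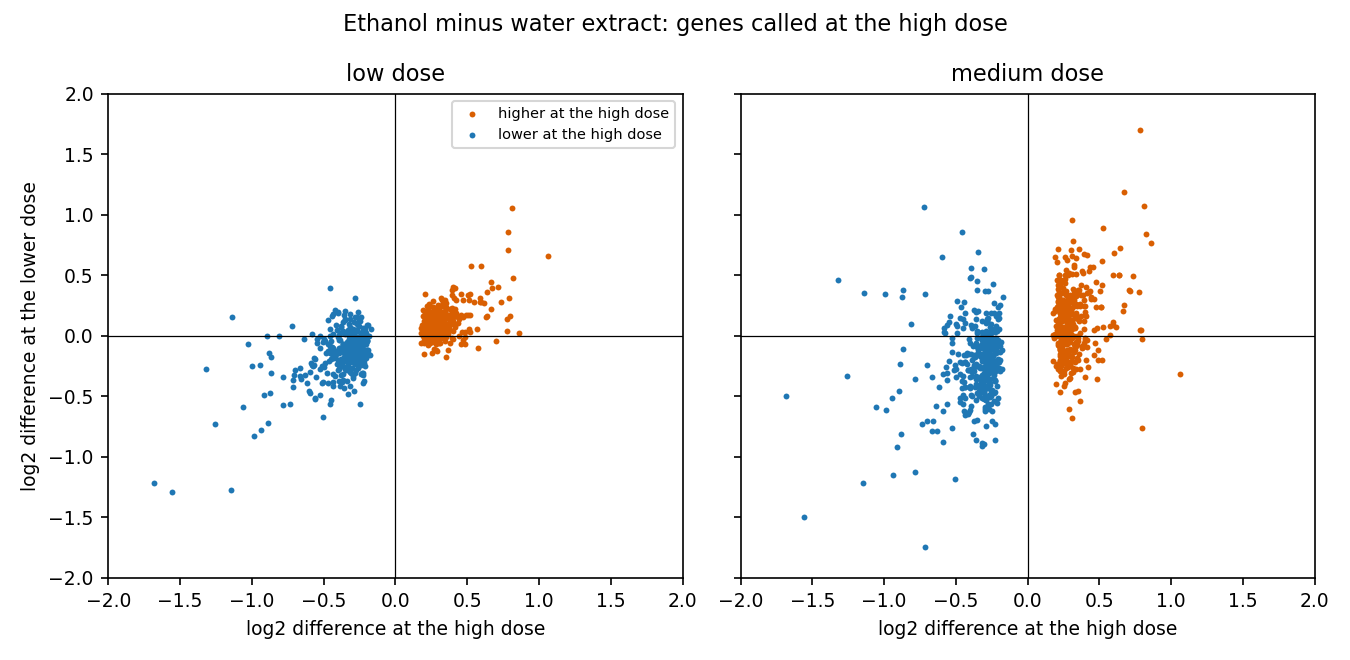
Log2 difference between ethanol and water extract at the low dose (left) and the medium dose (right), on the y axis, against that at the high dose (x axis), 1 point per gene called at the high dose. Of 763 genes at the low dose 641 lie in the quadrants of equal sign. Most low-dose differences are smaller than the high-dose ones, which can follow from choosing the genes by the high-dose difference. In each panel 1 gene lies outside the axes.

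Of the 4 genes named by the rule, ENSRNOG00000011078.4 passed at the low dose as well. Ethanol minus water was -1.29 ± 0.113 on the log2 scale there (SE), and the edgeR adjusted p was 0.0164. This call was lost when low-dose ethanol replicate 1 (edgeR adjusted p = 0.0515) or low-dose water replicate 1, 2 or 3 (0.287, 0.0635 and 0.0905) was left out, and with the replicate number as a block (0.162). ENSRNOG00000057347.1 had a low-dose log2 difference of -1.21 ± 0.273 (SE) and did not pass (edgeR adjusted p = 0.627). At the medium dose these genes gave -1.49 ± 0.699 and -0.49 ± 0.221 on the log2 scale (SE), neither of which passed (edgeR adjusted p = 0.496 for both). Both values depended on single libraries. Without medium-dose ethanol replicate 1, which left only the ethanol libraries that stood apart, they were -2.71 and -0.72 (edgeR adjusted p = 0.00371 and 0.0209). In that fit 4023 genes passed, so passing there is not particular to these genes. Without replicates 2 and 3, ENSRNOG00000011078.4 gave -0.42 and ENSRNOG00000057347.1 gave -0.14. These values come from 1 ethanol library against 3 water libraries, so they hold no spread among ethanol libraries. The other 2 genes named by the rule fell below the filter on low values at both lower doses.

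Whether the difference between extracts itself changed from low to high dose was tested over the 12 libraries of these doses. No gene passed in edgeR (0 of 12253; 812 genes, or 6.63%, had an unadjusted p under 0.05) or in limma-voom (0; 814 genes). For ENSRNOG00000057347.1 the difference between doses was -0.46 ± 0.336 on the log2 scale (SE; edgeR adjusted p = 0.736), and for ENSRNOG00000011078.4 it was -0.27 ± 0.163 (SE; edgeR adjusted p = 0.71). Without low-dose ethanol replicate 1, 1 gene passed.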

How the data were processed

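Messenger RNA libraries of PC12 cells were made with a directional kit, per the labels' protocols. The deposited expected counts per gene are not normalized, and the deposited TPM values are scaled to gene length and library, both made by the authors with RSEM 1.3.3, per the file headers and the submitters' processing notes. Gene length and effective length in bases are deposited beside them. Strand option, annotation, genome build and aligner settings are not given in the sources used here. Samples were grouped by title.

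Expected counts were rounded. Genes averaging 1 CPM or more across these 6 libraries were tested with edgeR 4.0.16 (R 4.3.3; robust quasi-likelihood F test, TMM, Benjamini-Hochberg adjustment over all genes tested), in a fit of the libraries compared only. SE is the absolute log2 difference divided by the square root of F. CPM levels used TMM over all 21 libraries. The per-library medians used a pseudocount of 0.5 CPM. The test was tested on simulated data. Within a high-dose group, chi-square per degree of freedom between libraries was 4.87 to 11.0, above the value near 1 of a library counted more than once. Intervals and floors cover counting error only. Genes named were the 2 with the largest log2 difference in each direction among those at an adjusted p under 0.05 whose groups did not overlap. ENSRNOG00000046379.2 was added for its size and level, outside this rule. The comparison, gene lists and alternatives were chosen with earlier results of these data known. The lists could not be applied without symbols. Alternatives were DESeq2 1.42.0, limma-voom (limma 3.58.1), other scalings, filters and library sets, a replicate block, fragment length as a covariate, and leaving out each library.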

Additional observations from a re-analysis of the deposited data

How the results depend on the processing

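At the high dose, the numbers of genes higher and lower with ethanol were 240 and 244 with limma-voom, 596 and 616 without a filter on low counts, 3 and 3 with all 21 libraries, 825 and 824 with 18 libraries, 729 and 750 with fragment length as a covariate, and 67 to 541 and 94 to 502 when 1 library was left out. With the replicate number as a block they were 566 and 556. Same-numbered libraries correlated in their deviations at 0.171, 0.0786 and -0.0303, so the numbers were not taken as pairs, and not every library correlated best with its own number. DESeq2, other size factors, library totals, the other filters and effective length offsets left both numbers within 1.5 times of those reported. The fit of whole counts only called 510 and 495 among 10458 genes, of which the fit as reported called 324 and 322. The number of genes called at 2-fold or more, 12 as reported, was 25 with the replicate block, 21 with edgeR's default filter, 20 with the fragment length covariate and 13 to 18 when 1 library was left out. ENSRNOG00000008648.4 and ENSRNOG00000058357.1 gave no adjusted p with DESeq2, and with ENSRNOG00000011078.4 they are outside the set of whole counts. Calls of genes named by the rule were lost with all 21 libraries (edgeR adjusted p = 0.165 for ENSRNOG00000008648.4, 0.301 for ENSRNOG00000058357.1 and 0.187 for ENSRNOG00000011078.4). The call of ENSRNOG00000058357.1 was also lost with 18 libraries (0.114), and that of ENSRNOG00000008648.4 without water replicate 1 (0.0741) or ethanol replicate 2 (0.0559). ENSRNOG00000057347.1 passed in all 19 alternatives, with adjusted p up to 0.00971. At the low dose DESeq2 gave 33 genes, the replicate block 0, and single libraries left out 0 to 60. At the medium dose DESeq2 gave 61, limma-voom 1, the replicate block 16, and single libraries left out 0 to 4023, the highest without ethanol replicate 1. Without ethanol replicates 2 and 3, an alternative chosen after seeing the data, it was 2583 from 1 library against 3, whose lone library is assumed to vary like the others. The difference between doses gave 1 gene without low-dose ethanol replicate 1. The causes of these changes were not tested.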
